A study of Homo sapiens with 10 samples.

Results

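Antigen presentation genes were followed in A549, a human lung adenocarcinoma cell line, grown either as monolayers (the Mono arrays) or in rotating wall vessels (the RWV arrays), slowly turning fluid-filled chambers in which cells stay suspended at low shear. The labels give 5 biological replicates of each culture, the same line in all of them, with no genotype or drug, no culture time, and a medium of Dulbecco's type with foetal calf serum and 4 mM l-glutamine. As a model this is 1 tumour line without immune cells, and the growth text of every sample names the vessels, so the groups rest on the sample titles. Total RNA was labelled with Cy3 and read on 1-colour arrays of 45220 spots. The members were the 39 genes of the major histocompatibility complex (MHC) and antigen presentation whose symbols were listed for this comparison. All 39 were found, on 113 of the 31332 spots with 1 gene symbol, and they fell into class I (12 genes, 44 spots), class II (14 genes, 40 spots), stress ligands (5 genes, 9 spots), class I-like molecules (3 genes, 10 spots) and transcriptional regulators (5 genes, 10 spots).

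MHC class I molecules carry peptides from the cytosol to the cell surface, where CD8 T cells read them. A heavy chain pairs with beta-2-microglobulin (B2M) and is loaded with peptide in the endoplasmic reticulum by the TAP transporter, tapasin and the ERAP peptidases, and nearly all nucleated cells make it, more so under interferon. Class II molecules show peptides from endosomes to CD4 T cells and are mostly made by professional antigen-presenting cells under control of CIITA, with the invariant chain CD74 as their escort and HLA-DM as the peptide exchanger. The stress ligands MICA, MICB and ULBP bind the receptor NKG2D of natural killer and T cells. Alveolar type II cells, for which A549 often stands in, are known to carry class II molecules, in contrast to many other epithelia.

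The upstream sequences of the genes whose results matter most are shown first, since class I heavy chains are alike in sequence and are known to share promoter elements. RefSeq promoter windows (GRCh38.p14) were at hand for 33 of the 39 members, in 46 windows, and HLA-E, NLRC5, CIITA, HLA-DRA, CTSS and LGMN were not among them. The 250 bases before the annotated start are printed 5′ to 3′ on the strand of the gene. Capitals mark the motifs searched for on both strands. These were the interferon regulatory factor core AANNGAAA, the interferon-stimulated response element GAAANNGAAA (of which the core is a part), the gamma activated sequence TTCNNNGAA, the X2 box core TGACG, the CCAAT box CCAAT and an NF-kB motif GGGNNTTNCC. HLA-B to HLA-G are the heavy chains, B2M the light chain, TAP1 a peptide transporter subunit whose level did not pass the test, and HLA-DMB and MICB the class II and stress ligand genes with the most changed spots. HLA-G had 3 windows and TAP1 had 2, and the one printed was picked after the motifs were seen.
HLA-B (chr6:31357180-31357429, minus strand): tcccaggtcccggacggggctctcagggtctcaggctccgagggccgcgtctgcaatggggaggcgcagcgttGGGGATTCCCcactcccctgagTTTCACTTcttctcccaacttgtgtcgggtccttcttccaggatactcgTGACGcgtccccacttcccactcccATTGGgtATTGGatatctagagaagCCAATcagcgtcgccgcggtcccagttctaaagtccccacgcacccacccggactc
HLA-C (chr6:31272093-31272342, minus strand): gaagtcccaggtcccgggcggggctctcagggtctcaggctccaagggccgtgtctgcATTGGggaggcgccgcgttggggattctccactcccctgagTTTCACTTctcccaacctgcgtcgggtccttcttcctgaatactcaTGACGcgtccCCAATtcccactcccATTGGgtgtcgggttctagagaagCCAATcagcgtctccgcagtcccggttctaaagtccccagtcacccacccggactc
HLA-F (chr6:29723184-29723433, plus strand): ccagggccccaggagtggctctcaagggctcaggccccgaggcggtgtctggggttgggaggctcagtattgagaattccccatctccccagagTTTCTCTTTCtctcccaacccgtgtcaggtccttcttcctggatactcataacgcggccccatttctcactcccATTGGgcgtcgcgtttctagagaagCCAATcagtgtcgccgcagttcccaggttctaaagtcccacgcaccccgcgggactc
HLA-G (chr6:29827575-29827824, plus strand): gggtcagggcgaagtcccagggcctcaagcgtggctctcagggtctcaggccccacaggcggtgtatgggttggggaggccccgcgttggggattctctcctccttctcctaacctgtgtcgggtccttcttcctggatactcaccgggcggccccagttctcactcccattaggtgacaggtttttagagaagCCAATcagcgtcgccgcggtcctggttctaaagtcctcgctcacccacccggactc
B2M (chr15:44711267-44711516, plus strand): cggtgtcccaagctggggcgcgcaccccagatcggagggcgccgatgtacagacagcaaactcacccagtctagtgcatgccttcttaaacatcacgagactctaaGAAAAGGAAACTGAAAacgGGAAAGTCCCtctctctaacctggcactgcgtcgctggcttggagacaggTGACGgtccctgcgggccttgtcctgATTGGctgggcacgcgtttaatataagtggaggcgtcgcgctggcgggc
TAP1 (chr6:32853705-32853954, minus strand): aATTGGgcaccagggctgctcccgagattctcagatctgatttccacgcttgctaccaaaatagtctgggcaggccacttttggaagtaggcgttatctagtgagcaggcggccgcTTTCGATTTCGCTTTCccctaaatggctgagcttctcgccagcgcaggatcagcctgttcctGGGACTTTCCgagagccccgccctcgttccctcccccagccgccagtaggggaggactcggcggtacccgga
HLA-DMB (chr6:32941029-32941278, minus strand): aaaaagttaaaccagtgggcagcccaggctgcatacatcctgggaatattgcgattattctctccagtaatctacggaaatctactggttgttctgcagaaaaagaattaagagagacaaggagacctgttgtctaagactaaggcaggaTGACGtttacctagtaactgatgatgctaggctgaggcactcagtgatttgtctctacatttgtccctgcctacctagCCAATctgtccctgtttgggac
MICB (chr6:31497895-31498144, plus strand): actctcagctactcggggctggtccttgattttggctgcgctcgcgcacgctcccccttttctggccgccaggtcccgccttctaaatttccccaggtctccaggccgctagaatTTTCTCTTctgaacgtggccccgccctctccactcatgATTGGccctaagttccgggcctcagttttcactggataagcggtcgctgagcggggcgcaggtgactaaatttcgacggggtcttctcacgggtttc

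The heavy chain windows were alike over most of their length. HLA-B and HLA-C had identical bases in 89.0% of the columns of their alignment, and the lowest value between any pair of the printed heavy chain windows was 72.8%, between HLA-F and HLA-G. Against B2M and HLA-DMB, which are no heavy chains, the same measure was 45.9% to 51.4%. All 4 printed heavy chain windows held a CCAAT box 56 or 57 bases before the start. The HLA-G window was picked because it held this box, so its presence there was set by the pick. Of all 6 heavy chain windows 4 held the box anywhere, as did 32.0% of all 35116 windows of the table, and the other HLA-G windows held none. The identity values of HLA-G rest on the same pick. The interferon regulatory factor core lay 155 bases before the start in HLA-B, 151 in HLA-C and 156 in HLA-F (20.3% of all windows), and the X2 box core lay 106 bases before it in HLA-B and 105 in HLA-C (21.2%). Of the 6 heavy chain windows 1 held the full response element, that of HLA-F at 156 bases (3.02% of all windows). The NF-kB motif was in 1 of them, that of HLA-B at 177 bases (5.07%). Of the 11 windows of the 7 light chain and loading genes, 5 held the full response element (3.02% of all windows) and 5 the NF-kB motif (5.07%), and among the genes TAP1, TAPBP and B2M had both. The 9 class II chains with a window held neither the core nor the response element. Of the 5 stress ligand genes 2 held the core, MICA 131 and MICB 135 bases before the start. No HLA-G window held the core. All 7 light chain and loading genes held it, including TAP1, TAP2, ERAP1 and ERAP2, which had no called change. Such matches describe letters and show no binding.

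Values are spot intensities, quantile normalised over the 10 arrays, and tests ran on log2(intensity + 50) with limma over all 31332 spots, with Benjamini-Hochberg adjustment and a threshold of 0.05. After each log2 fold change (RWV minus Mono), ± is its standard error with 5 arrays in each group. A spot below 100 on every array of a group was taken as dim there. Of the 113 member spots, 35 were dim in both groups, with 0 to 97.8 on all arrays, and 10 genes had nothing but such spots: ERAP1, HLA-DOB, HLA-DPA1, HLA-DPB1, HLA-DQA1, HLA-DRA, CD74, CD1D, ULBP1 and ULBP3. Of the other 78 member spots, 40 were higher in RWV cultures, 2 were lower and 36 did not pass the test, where 19.1% of all annotated spots that were not dim in both groups were higher and 19.8% were lower. The median log2 fold change was 0.73 over these 78 spots and -0.01 over all 22370 such spots. By gene, with the spots of a gene averaged, 10 of the 39 members were higher and 1 was lower, where 15.0% of all 18334 genes were higher and 15.2% lower. These shares, also set beside the gene lists below, include genes dim in both groups. With such genes not called, as for the members, 2673 of the 18334 were higher and 2735 lower. The higher members were HLA-B, HLA-C, HLA-E, HLA-F, HLA-G, B2M, TAPBP, TAPBPL, HLA-DMB and MR1, and the lower one was MICB. Class I had 8 of the 12 class I genes higher, class II 1 of 14, and the stress ligands 0 of 5 with 1 lower.

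**Figure D1:**
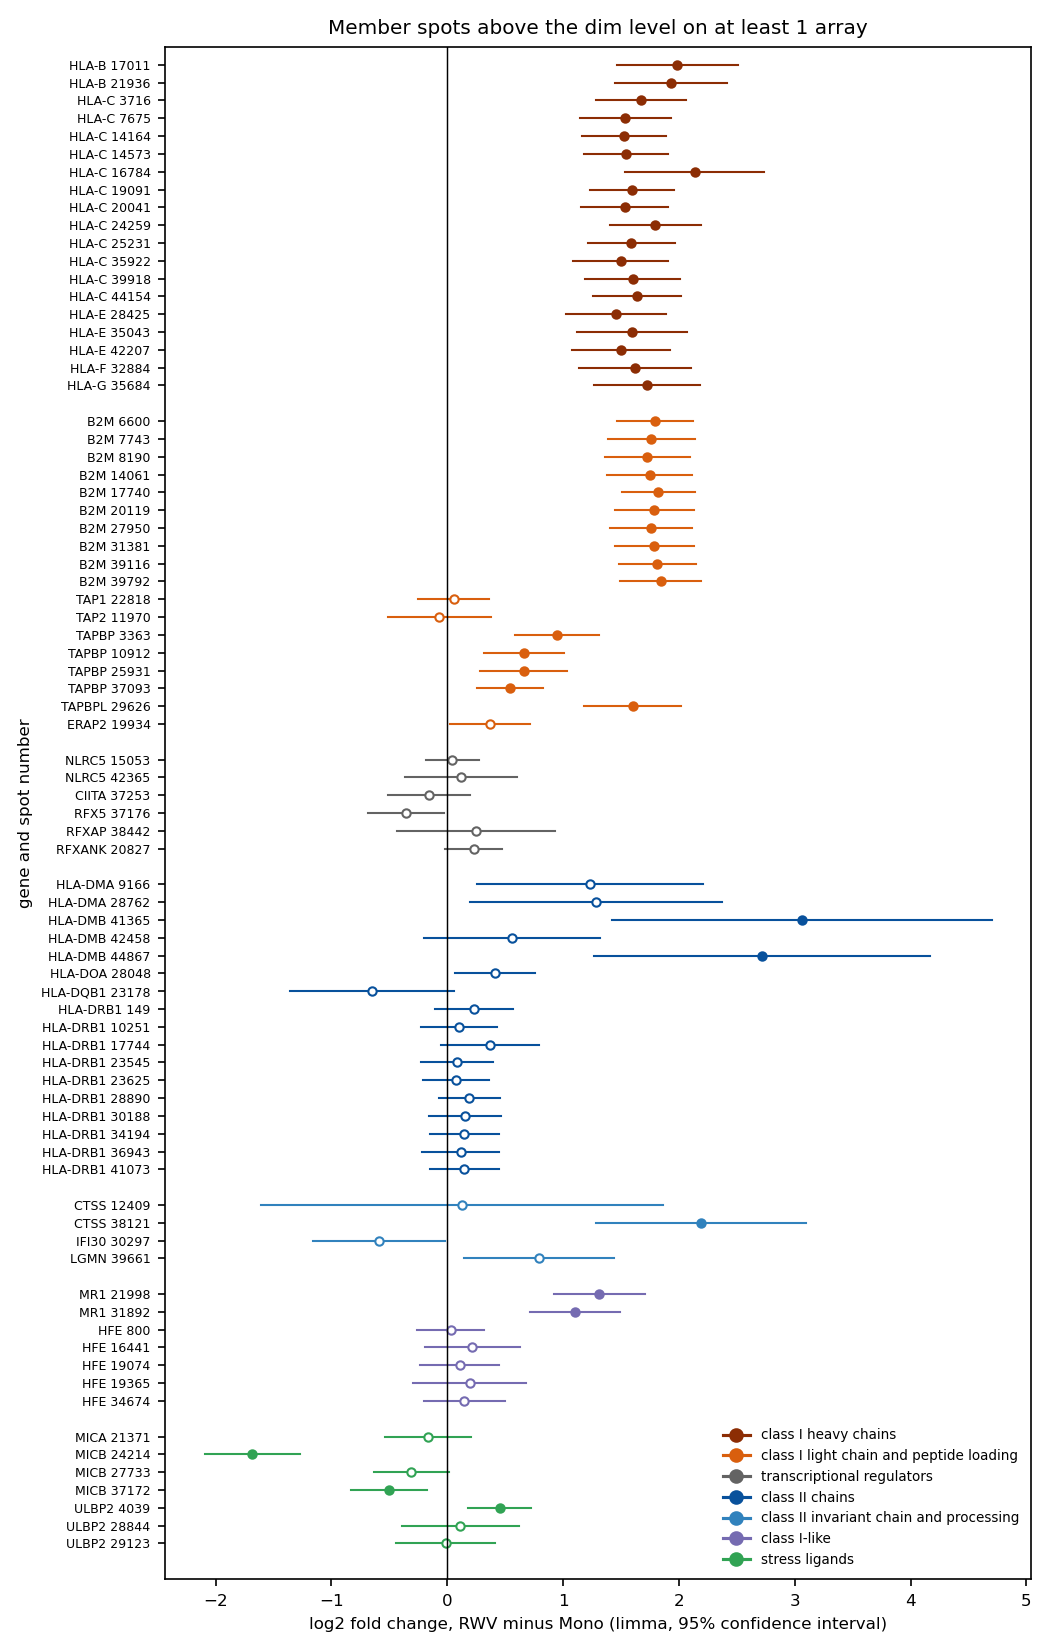
Log2 fold change (RWV minus Mono, limma, n = 5 arrays in each group) of the 78 member spots that were not dim in both groups, with 95% confidence intervals, ordered by role. Filled points had an adjusted p below 0.05. The heavy chain and B2M spots lie in a narrow band between 1.46 and 2.14, TAP1, TAP2 and the regulators lie between -0.36 and 0.25, HLA-DMB spots 41365 and 44867 lie farthest to the right with wide intervals, and MICB spot 24214 farthest to the left.

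Median deposited intensities were 114 to 184.5, their 75th percentiles 875 to 1685, and 422 to 866 spots an array lay at or above 60000. Correlations over annotated spots were 0.964 to 0.989 within Mono, 0.977 to 0.989 within RWV and 0.911 to 0.979 between them. Saturation differed between the groups: of spots at 60000 or above, 5.84% to 8.45% lay within 200 units of the highest deposited value on Mono arrays and 89.3% to 93.1% on RWV arrays. The difference held on every array and fell along the culture groups, so it cannot be separated from culture. Its part in the fold changes was not tested. All 7 measured A549 epithelial markers were above the dim level on all arrays. Of these the keratin KRT19 was higher in RWV (1.55 ± 0.36, limma adjusted p = 0.00619), the adhesion molecule EPCAM gave -0.84 ± 0.37 (adjusted p = 0.112), and AKR1B10 averaged over 60000 in both groups, near the ceiling. In bulk RNA, fewer cells of a kind and less RNA in each cell cannot be told apart.

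Class I heavy chains rose together. All 19 of their spots were higher in RWV, by 2.74-fold to 4.40-fold, and on each spot the lowest RWV array lay above the highest Mono array (21.4% of all annotated spots had groups that did not overlap). HLA-B, a classical heavy chain, read 6622, 8710, 11158, 5628 and 7754 on Mono arrays 1 to 5 at spot 21936, and 31062, 45843, 20557, 28521 and 28062 on RWV arrays 1 to 5. The groups were apart on every array, with a log2 fold change of 1.93 ± 0.22 (limma adjusted p = 9.36e-05). Its other spot, 17011, was dimmer and gave 1.99 ± 0.24.

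HLA-C, the other classical heavy chain here, was read by 12 spots with log2 fold changes of 1.50 to 2.14. Of these, 10 were annotated with the same transcript and spanned 1.50 to 1.67. The files do not say whether such spots, here and for B2M and HLA-DRB1, hold the same probe, so they are no independent readings. The brightest, spot 19091, read 15851, 19893, 26115, 14895 and 20176 on the Mono arrays and 57982, 64568, 45398, 64076 and 57700 on the RWV arrays. The deposited values ran into the ceiling of the scanner, with 18 of the 60 RWV values at or above 60000 and 0 of the 60 Mono values, all 18 on RWV arrays 2, 4 and 5. The 3 HLA-C spots that never reached 60000 gave 1.67 ± 0.18 (spot 3716), 1.80 ± 0.18 (spot 24259) and 2.14 ± 0.28 (spot 16784). As deposited, spots 3716 and 24259 came close to that level on RWV 5 (59799 and 59856), and spot 16784 read 33226 there. Spot 16784, annotated with a different transcript, read 4663, 6658, 9033, 3301 and 5746 on the Mono arrays and 26991, 38846, 16656, 19839 and 26238 on the RWV arrays.

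The non-classical heavy chains showed changes of the same size. HLA-E, whose product presents signal peptides of other class I chains to the receptor NKG2A, was higher on all 3 spots, by 1.46 ± 0.20, 1.59 ± 0.22 and 1.50 ± 0.19. At spot 28425 it read 6589, 8396, 9776, 5674 and 7475 on the Mono arrays and 23001, 30118, 15251, 17844 and 19367 on the RWV arrays, again with no overlap. HLA-F, a chain known to reach the surface without peptide on activated cells, read 2257, 2925, 3643, 1942 and 2692 on the Mono arrays and 8817, 12625, 5399, 7688 and 8006 on the RWV arrays (1.62 ± 0.22, limma adjusted p = 0.000254). HLA-G, known from the placenta for inhibition of natural killer cells, read 7340, 9082, 11852, 7410 and 8897 on the Mono arrays and 29817, 44089, 18516, 29817 and 28792 on the RWV arrays (1.72 ± 0.21, limma adjusted p = 0.000137).

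The 5 heavy chains also shared their order of arrays. Array Mono 3 was the highest Mono array on all 19 spots and RWV 3 was the lowest RWV array on all 19, while RWV 2 was the highest on 18 and Mono 4 the lowest on 14. The 15 higher spots of B2M, TAPBP and TAPBPL, which are no heavy chains, had RWV 2 highest on all 15, RWV 3 lowest on 10, Mono 3 highest on 11 and Mono 4 lowest on 13. Outside class I, the genes IRF1 and CD40 and the epithelial marker CDH1 had these same highest and lowest arrays. In TAP1, by contrast, Mono 4 was the highest Mono array. The pattern is thus not particular to class I, and its share over all spots was not counted. The coding sequences of the heavy chains are close, the probe sequences were not used here, and how much signal the spots share was not tested, so the separate values of HLA-B, HLA-C, HLA-E, HLA-F and HLA-G are uncertain.

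The light chain moved with the heavy chains. B2M, which is encoded outside the MHC on chromosome 15 and does not share the heavy chain sequence, had 12 spots. The 10 that were annotated with its reference transcript rose by 1.73 to 1.84, with adjusted p-values of at most 4.49e-05 (limma). Of these 10, 3 were at or above 60000 on array RWV 5 as deposited, where the ceiling can understate a change. Spot 39116, which was not, read 8467, 8434, 11829, 7371 and 8781 on the Mono arrays and 32500, 36399, 24215, 29876 and 35094 on the RWV arrays, a 3.52-fold change with no overlap. The other 2 spots, annotated with other transcripts, were dim in both groups. One of them, 31594, read 74.95 to 91.9 in Mono and 44.7 to 67.9 in RWV, with a change of -0.35 ± 0.10 that was past the test (adjusted p = 0.0242, limma) but lies below the level where a fold can be given.

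**Figure D2:**
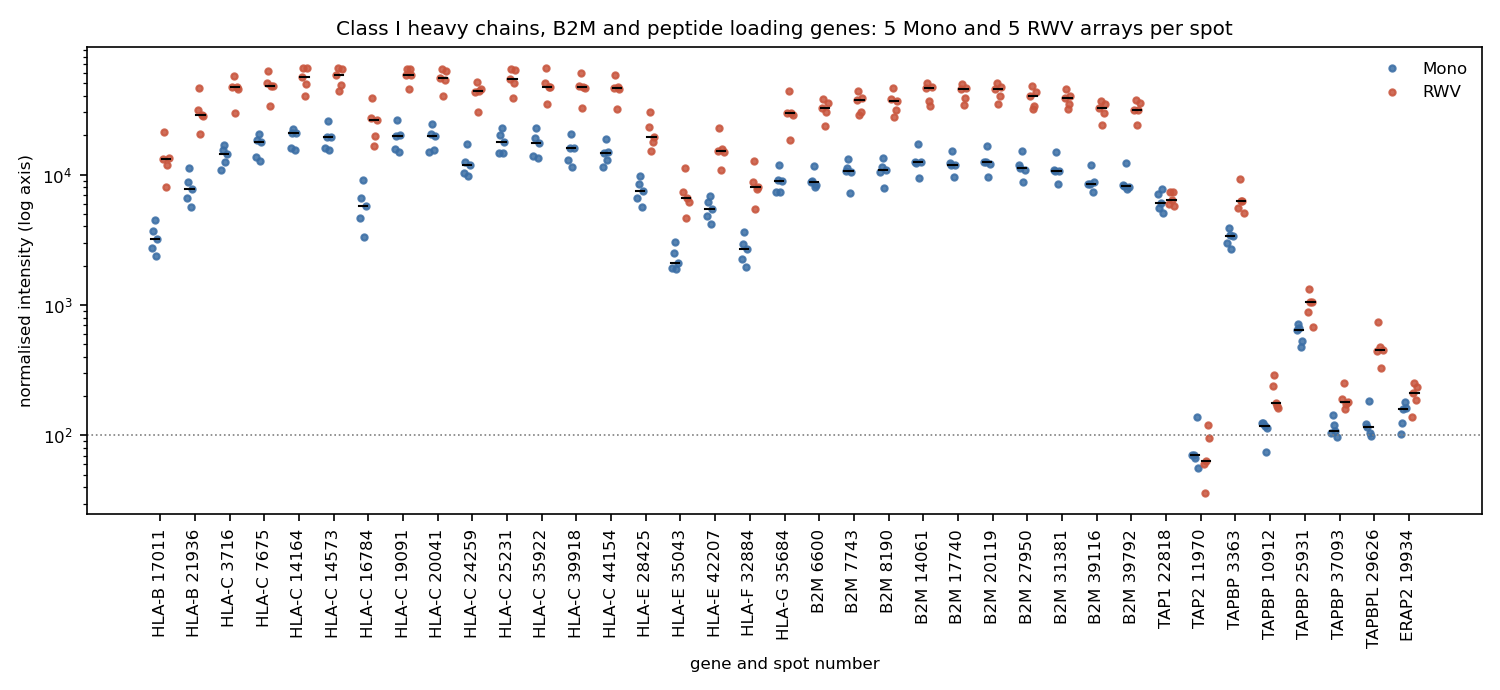
Normalised intensity (log axis) of the 37 class I spots that were not dim in both groups, with 5 Mono arrays in blue, 5 RWV arrays in red, the median of each group as a black bar and the dim level of 100 as a dotted line. The groups are apart on every heavy chain spot and every B2M spot shown, and they overlap on TAP1, TAP2 and ERAP2 and on TAPBP spot 25931.

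Peptide loading genes split. TAP1, a subunit of the transporter that brings peptides into the endoplasmic reticulum, read 7079, 5574, 6037, 7820 and 5099 on the Mono arrays and 5981, 7325, 6350, 7299 and 5710 on the RWV arrays. The groups lay over each other, with a log2 fold change of 0.06 ± 0.14 and a 95% interval of -0.25 to 0.36 (limma adjusted p = 0.816), which lies below the change of every heavy chain spot. Its partner TAP2 had 1 dim spot, and the other, 11970, was above 100 on 1 Mono and 1 RWV array (-0.07 ± 0.20). Of the ERAP peptidases, which trim peptides to length, ERAP1 was dim on both spots and ERAP2 gave 0.37 ± 0.16 at spot 19934 (limma adjusted p = 0.105), which was past the test without RWV 1 (0.48, adjusted p = 0.0377) and with the replicate number as a block (0.0492).

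The 2 genes of the tapasin kind were higher. TAPBP (tapasin), which bridges the heavy chain to the transporter, was past the test on 4 of 5 spots, and the fifth was dim. Its brightest spot, 3363, read 2971, 3872, 3459, 2706 and 3404 on the Mono arrays and 5505, 9258, 6319, 6219 and 5093 on the RWV arrays (0.95 ± 0.17, limma adjusted p = 0.00124), and the other spots gave 0.54 to 0.66. Without normalization between arrays none of the 4 passed (limma adjusted p 0.050 to 0.103). TAPBPL (TAPBPR), a related peptide editor that works outside the loading complex, read 121.9, 115.75, 184.8, 103.9 and 98.55 on the Mono arrays and 442.55, 740.6, 475.6, 328.7 and 454.75 on the RWV arrays (1.60 ± 0.19, limma adjusted p = 0.000117). Every RWV array lay above every Mono array for it.

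Proteasome subunits that feed the pathway were called in both directions. Of the immunoproteasome and its activator, 2 of 5 genes were higher and 2 lower (15.0% and 15.2% over all genes), and the constitutive catalytic subunits PSMB5, PSMB6 and PSMB7 were all lower (-0.46 to -0.83). PSMB8, an immunoproteasome protease, rose by 1.18 ± 0.14, from 704.1 ± 65.8 to 1679 ± 345 (SD, n = 5), while its partner PSMB9, a neighbour of TAP1 in the MHC, gave -0.99 ± 0.25 (limma adjusted p 0.000112 and 0.0109). The activator subunits PSME1 and PSME2 gave 0.42 ± 0.13 and -0.41 ± 0.12. Among general chaperones of the loading complex 1 of 3 was higher, PDIA3 (ERp57) by 0.75 ± 0.14, and CALR and CANX did not pass.

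The transcriptional regulators of MHC genes did not pass the test on any spot above the dim level. NLRC5, the class I transactivator, read 126.6, 134.4, 134.9, 144.75 and 114.8 on the Mono arrays and 127.7, 135.4, 129.6, 165.3 and 127.1 on the RWV arrays at its brightest spot, 15053 (0.04 ± 0.10, 95% interval -0.18 to 0.27). Another spot of it, 1899, lay between 11.3 and 41.8 in Mono and between 40.7 and 97.8 in RWV, dim throughout, with 0.60 ± 0.15 (limma adjusted p = 0.0114), so that its direction rests on values near background. Spot 42365 gave 0.12 ± 0.22, and 0.40 without Mono 4 and RWV 3 together (adjusted p = 0.0493, limma). CIITA, the class II transactivator, was dim on 3 of 4 spots and gave -0.15 ± 0.16 on the other, 37253. That spot was above 100 only on Mono 4 (146.4) and RWV 4 (103.1). RFX5, RFXAP and RFXANK form the complex that binds the X box of MHC promoters. RFXANK read 5758 to 7146 in Mono and 6990 to 8853 in RWV (0.23 ± 0.11), RFX5 779 to 1132 and 568.4 to 823.9 (-0.36 ± 0.15), and RFXAP 33.4 to 104.8 and 20.2 to 160.3 (0.25 ± 0.31), and none of them passed (limma adjusted p 0.160, 0.100 and 0.618). RFX5 was past the test as lower with the array set as a block (adjusted p = 0.0371) and with the replicate number as a block (0.0316).

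Signalling genes upstream of MHC transcription changed in part. In the interferon gamma axis 3 of 7 measured genes were higher and 1 lower. The receptor chains IFNGR1 and IFNGR2 rose by 1.14 ± 0.20 and 0.63 ± 0.17, the transcription factor IRF1 rose by 1.04 ± 0.16, and the kinase JAK1 gave -0.93 ± 0.18. Of 4 measured genes of type I interferon signalling, IRF9 rose by 1.02 ± 0.21. Of 6 NF-kB subunits and feedback genes, NFKBIA, the inhibitor induced by NF-kB, rose by 0.86 ± 0.23. Of NFYA, NFYB, NFYC and CREB1, which bind the CCAAT box and the X2 box, NFYB and NFYC were lower, by -0.50 ± 0.12 and -0.36 ± 0.09. The adjusted p-values of these 8 genes were at most 0.0155 (limma). These lists were short, and over all genes 15.0% were higher and 15.2% lower.

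In class II, most antigen-presenting chains were dim, and on average HLA-DRB1 lay between them and the peptide exchange factor HLA-DM. With the spots of a gene averaged, HLA-DRB1 had means of 471 in Mono and 534 in RWV. The means were 827 and 1705 for HLA-DMA and 1133 and 3919 for HLA-DMB. On array Mono 4 HLA-DRB1 lay above both (560 against 147 and 133), and on Mono 1 above HLA-DMA (498 against 443). HLA-DRA was read by 1 spot, at 4.8, 4.8, 31.9, 4.4 and 17.1 on the Mono arrays and at 29.6, 28.2, 12.9, 15.8 and 8.7 on the RWV arrays, and CD74 read 17.9 to 30.9 in Mono and 4.7 to 57.3 in RWV. All spots of HLA-DPA1, HLA-DPB1, HLA-DQA1 and HLA-DOB were dim as well, as were 3 of 4 spots of HLA-DQB1 and 4 of 5 of HLA-DOA. The fourth HLA-DQB1 spot, 23178, was above 100 on Mono 2 (126.5) and Mono 4 (298.1) and on no RWV array.

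HLA-DRB1 stood apart from its partner chain. Its 10 spots, annotated with the same transcript, read 227 to 593.9 in Mono and 403.5 to 706.9 in RWV, well above the dim level on every array, with changes of 0.08 to 0.37 that did not pass (limma adjusted p 0.195 to 0.738). A spot annotated with HLA-DRB1 and 3 of its relatives together, HLA-DRB3, HLA-DRB4 and HLA-DRB5, had deposited values of 14 to 82 and was left out of the counts. HLA-DOA, a chain of the HLA-DM inhibitor HLA-DO, read 365.1 to 480.2 in Mono and 459.7 to 813.6 in RWV on its bright spot, 28048 (0.41 ± 0.16, limma adjusted p = 0.0729, and 0.0368 without RWV 5), with its other 4 spots and both spots of its partner HLA-DOB dim.

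HLA-DMB, a chain of the peptide exchanger HLA-DM, rose on 2 of 3 spots. Spot 41365 read 2207, 5614, 8504, 289 and 8865 on the Mono arrays and 29363, 29738, 15095, 40795 and 24815 on the RWV arrays. All RWV arrays lay above all Mono arrays, but the Mono arrays ranged widely, and the log2 fold change was 3.06 ± 0.75 (limma adjusted p = 0.00929). Array Mono 4 was by far the lowest, and without it the change was 2.25 (limma adjusted p = 0.00162). Spot 44867 gave 2.72 ± 0.66 with the same pattern and 2.02 without Mono 4. The dimmer spot 42458 gave 0.56 ± 0.35 (limma adjusted p = 0.277), and 0.89 without Mono 2 (adjusted p = 0.0186). HLA-DMA, the partner chain, read 532.5, 1127, 1645, 159.1 and 1606 on the Mono arrays and 1525, 2740, 1972, 2580 and 1425 on the RWV arrays at spot 28762. The groups overlapped there, and neither spot passed (1.28 ± 0.50 and 1.23 ± 0.45, limma adjusted p 0.0757 and 0.0585), whereas without Mono 3 both did (1.54 and 1.46, adjusted p 0.0396 and 0.0306), and likewise without Mono 5 (1.53 and 1.43, adjusted p 0.0472 and 0.0436). Spot 9166 also passed where spots dim on most arrays were filtered out first (adjusted p = 0.0471).

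Of the endosomal processing genes, CTSS was higher on 1 of 2 spots. CTSS (cathepsin S), the protease that cleaves the invariant chain, read 701.7, 1339, 1750, 251.2 and 1119 on the Mono arrays and 4321, 6729, 4427, 3210 and 2992 on the RWV arrays at spot 38121 (2.19 ± 0.42, limma adjusted p = 0.00202). Its second spot, 12409, read 57.3, 3049, 127.9, 30.4 and 80.9 in Mono and 157.7 to 292.8 in RWV, and its change of 0.13 ± 0.80 was set by array Mono 2, since without that array it was 1.07 (limma adjusted p = 0.00605). LGMN (legumain), an asparaginyl endopeptidase, read 1103, 1882, 2126, 570.5 and 1408 on the Mono arrays and 2145, 3156, 2220, 2355 and 1731 on the RWV arrays (0.79 ± 0.30, limma adjusted p = 0.0676), and it passed without Mono 2 or without Mono 3 (0.92 and 0.97, adjusted p 0.0491 and 0.0279). IFI30 (GILT), the thiol reductase of endosomes, went the other way with 3317, 3260, 3414, 1828 and 2526 in Mono and 1308, 2117, 3404, 1669 and 1330 in RWV (-0.59 ± 0.26, limma adjusted p = 0.119). It was past the test without normalization between arrays (-0.87, adjusted p = 0.0164), without Mono 4 (-0.74, 0.0498) and without RWV 3 (-0.81, 0.0140). On all 9 spots of HLA-DMA, HLA-DMB, CTSS, LGMN and IFI30, Mono 4 was the lowest Mono array. Among 4 other lysosomal proteases measured 1 was higher, where 15.0% of all genes were. This was CTSD (cathepsin D), which rose by 1.00 ± 0.17, and CTSB and CTSZ did not pass. CTSL did not pass either, but it lay above 60000 on 4 Mono and 3 RWV arrays, where the ceiling limits what can be seen.

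**Figure D3:**
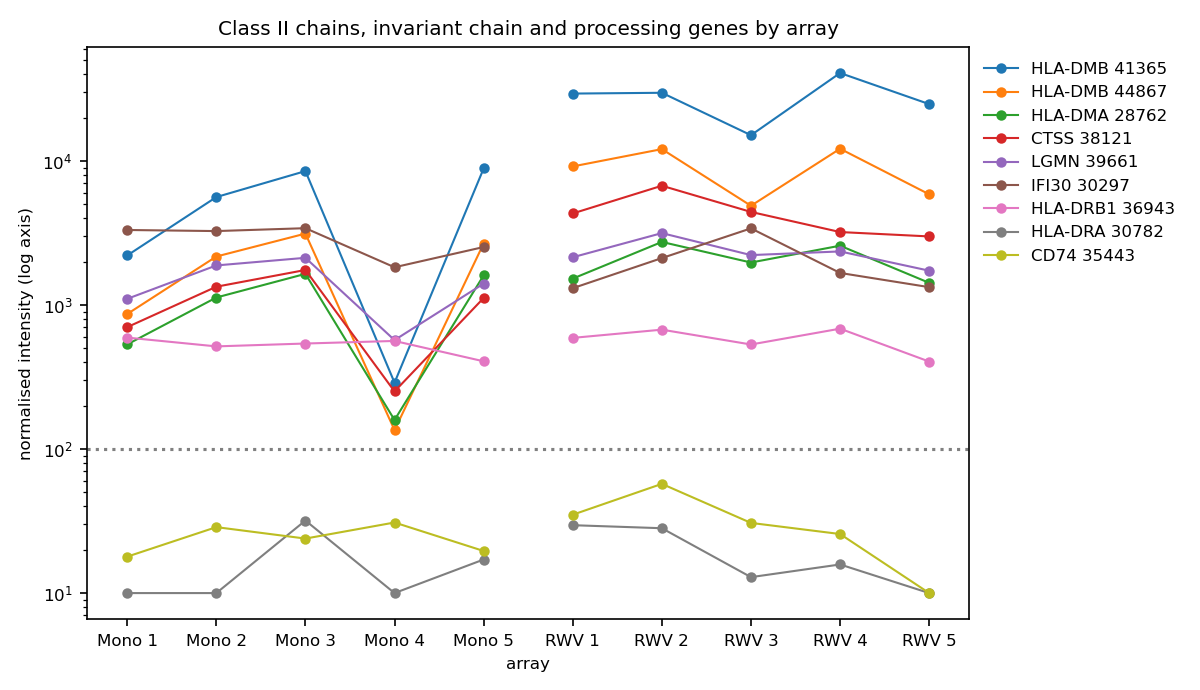
Normalised intensity (log axis) of 9 spots of class II chains, CD74 and processing genes on each of the 5 Mono and 5 RWV arrays, with the dim level of 100 as a dotted line and values under 10 drawn at 10. Lines join the values of 1 spot and imply no order of arrays. Mono 4 is low for HLA-DMB, HLA-DMA, CTSS and LGMN together, HLA-DRB1 stays between 404.8 and 684.9, and HLA-DRA and CD74 stay below 100.

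Markers of cells that carry class II molecules were read beside these genes. Of 12 measured blood cell markers 4 were higher in RWV, CD14 by 1.91 ± 0.38, CD68 by 1.72 ± 0.30, and ITGAX and LYZ from low levels. Over all genes 15.0% were higher and 15.2% lower, which is the share to set beside each count of this paragraph. ITGAX lay between 30.0 and 67.1 in Mono and between 143 and 282 in RWV, and LYZ was dim on all Mono arrays (8.7 to 26.7) and read 51.2 to 155.9 in RWV, so no fold is given for them. The summed level over the list was 3202 to 4399 in Mono and 6005 to 11710 in RWV. Its rise came mostly from CD14, which averaged 752 in Mono and 2853 in RWV, and CD68, which averaged 550 and 2121. The other 8 were not called. Among them PTPRC (CD45), the defining marker of all white blood cells, averaged 25.8 ± 10.50 in Mono and 23.8 ± 2.47 in RWV (SD, n = 5) over its 11 spots, LAPTM5 and MS4A1 were dim in both groups and CD3E averaged 74.4 and 71.2. TYROBP averaged 121 and 104, ITGAM 119 and 113, FCER1G 651 and 652, and CD79A 1472 and 1715, and no marker averaged 0. Of 6 endothelial and fibroblast markers 0 were higher and COL1A1 was lower (-0.47 ± 0.16), and their summed level was 240.6 to 366.3 in Mono and 224.7 to 290.2 in RWV. The part of the 4 raised markers in the class II values was not tested. CD86 and CD40, surface molecules of antigen-presenting cells that engage T cells, rose by 1.58 ± 0.39 and 0.73 ± 0.19, and NECTIN2, an epithelial ligand of natural killer receptors, by 0.76 ± 0.12. They were 3 of 8 measured genes of their list, in which CD274 (PD-L1) and PDCD1LG2 were dim in both groups. Of the ubiquitin ligases that remove MHC molecules from the surface, MARCHF9 rose by 1.01 ± 0.13 and MARCHF1 was dim in both groups.

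Among class I-like molecules, MR1 was higher. MR1 presents vitamin B metabolites of microbes to mucosal-associated invariant T cells. At spot 21998 it read 462.6, 696.5, 617, 496.4 and 602.5 on the Mono arrays and 1371, 2009, 988.1, 1667 and 1595 on the RWV arrays, with no overlap (1.31 ± 0.18, limma adjusted p = 0.000266), and spot 31892 gave 1.11 ± 0.18. On both MR1 spots RWV 3 was the lowest RWV array, as for the heavy chains and for the epithelial marker CDH1. HFE, the regulator of iron uptake, had 5 of 6 spots above the dim level with changes of 0.03 to 0.22, none past the test, and the lipid-presenting CD1D was dim on both spots.

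The stress ligands did not rise with class I. MICA read 2041, 1263, 1494, 2084 and 1507 on the Mono arrays and 1111, 1388, 1525, 1829 and 1552 on the RWV arrays (-0.17 ± 0.17, 95% interval -0.54 to 0.20, limma adjusted p = 0.533). MICB gave different answers on its 3 spots, all annotated with the same transcript. Spot 24214 read 1510, 1203, 1019, 1132 and 1424 on the Mono arrays and 300.7, 347.9, 601.6, 281 and 304.9 on the RWV arrays, which put it 3.21-fold lower with no overlap (-1.68 ± 0.19, limma adjusted p = 8.34e-05). The brightest, spot 27733, read 7137, 4783, 5108, 6644 and 5267 on the Mono arrays and 3777, 5298, 5038, 4986 and 4107 on the RWV arrays, where the groups overlapped (-0.31 ± 0.15, limma adjusted p = 0.151). Spot 37172 lay between them (-0.50 ± 0.15, limma adjusted p = 0.0259), and it was not past the test without Mono 1, Mono 4, RWV 1 or RWV 5 (adjusted p 0.0540 to 0.0700). The 95% intervals of spots 24214 and 27733 were -2.09 to -1.27 and -0.63 to 0.01 and did not meet.

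The ULBP ligands were near the dim level. ULBP1 and ULBP3 were dim on their only spots. ULBP2 was higher on 1 of 3 spots, 4039, with 106, 159.8, 132.4, 132.8 and 107.4 on the Mono arrays and 207.8, 196.3, 146.4, 214.75 and 199.3 on the RWV arrays (0.45 ± 0.13, limma adjusted p = 0.0179). There RWV 3 lay within the Mono range, and the call was lost without Mono 1 (adjusted p = 0.0519) and without normalization between arrays (0.249). The other spots, 28844 and 29123, gave 0.11 ± 0.23 and -0.01 ± 0.20.

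**Figure D4:**
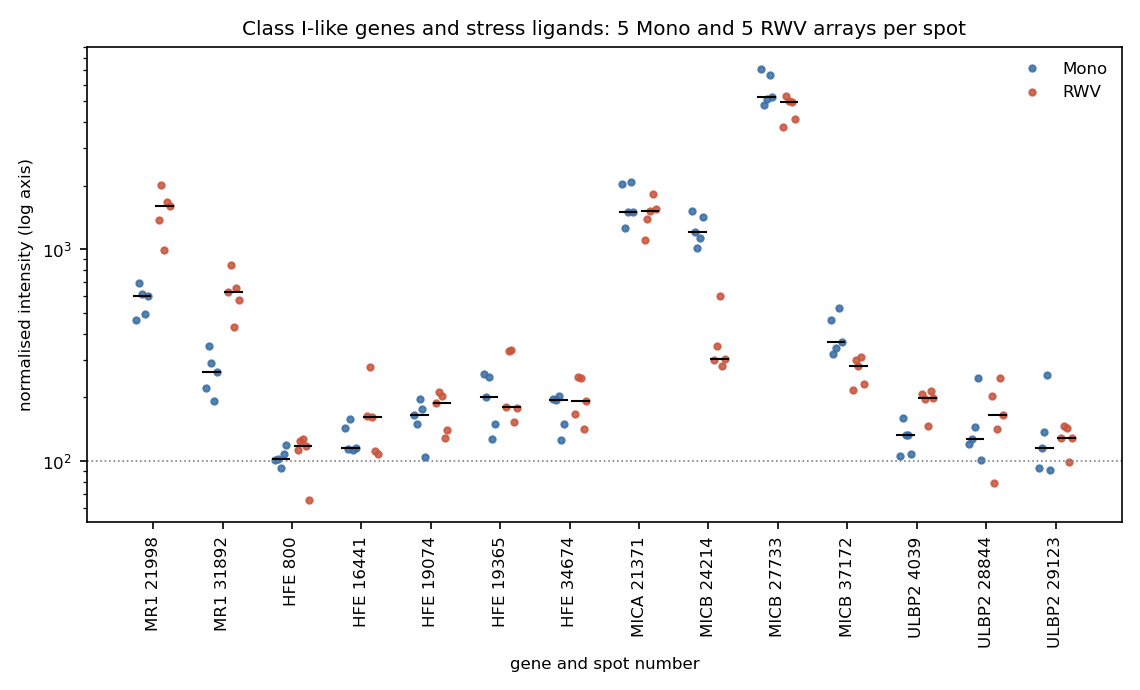
Normalised intensity (log axis) of the class I-like and stress ligand spots that were not dim in both groups, with 5 Mono arrays in blue, 5 RWV arrays in red, group medians as black bars and the dim level of 100 as a dotted line. The groups are apart on both MR1 spots and on MICB spots 24214 and 37172, and they overlap on all HFE, MICA and ULBP2 spots and on MICB spot 27733.

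Set side by side, the median log2 fold change of the spots not dim in both groups was 1.60 for class I (37 of 44 spots), 0.19 for class II (21 of 40), -0.17 for the stress ligands (7 of 9), 0.08 for the regulators (6 of 10) and 0.19 for the class I-like genes (7 of 10). These medians lean on genes with repeated spots. B2M and HLA-C made up 22 of the 34 higher class I spots, HLA-DRB1 made up 10 of the 21 class II spots and HFE 5 of the 7 class I-like spots. By gene, the medians over genes not dim in both groups were 1.52 for class I (11 of 12 genes) and 0.48 for class II (8 of 14). They were -0.17 for the stress ligands (3 of 5), 0.23 for the regulators (5 of 5) and 0.66 for the class I-like genes (2 of 3, MR1 and HFE). With dim genes included the medians were 1.49, 0.10, -0.14, 0.23 and 0.11 in the same order. Relative to the Mono mean, the median class I spot lay at 1.68, 2.01, 1.13, 1.54 and 1.71 on RWV arrays 1 to 5 and between -0.31 and 0.39 on the Mono arrays. The differences between the classes were not tested.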

How the data were processed

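Total RNA of 10 A549 cultures was labelled with Cy3 and hybridised to 1-colour arrays, per the labels' protocols. The authors deposited 1 linear spot intensity per spot and array, whole numbers with some below 0, so that background had been subtracted, with no visible normalization between arrays. The sources used here do not give the scanner, its software or how background was taken off. Neither flags nor probe sequences were used. The number of arrays limits precision.

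Of 45220 spots, 31332 carried 1 symbol, 93 several and 13795 none used here. Gene numbers matched RefSeq (GRCh38.p14) for 31291 spots, and 0 symbols changed. The arrays were brought to common quantiles in R 4.3.3 (limma 3.58.1). After negative values had been replaced by 0, tests used log2(value + 50), which understates fold changes of dim spots. The fit was limma (lmFit, eBayes), two-sided and without a block, for spots and for genes as the mean log2 of their spots. In simulated data with independent noise for each spot, the mean estimates came back near the changes put in. Those changes were put only on spots well above the dim level. The simulation held no saturation and no shifts shared by an array, so it cannot speak to these. A spot below 100 on all arrays of a group was dim, and 60000 marked saturation. A spot dim in both groups counts as no call. Promoter windows were searched with Python 3.11.15 and aligned globally with Biopython 1.88; figures used matplotlib 3.10.9 and pandas 2.3.3.

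Members, lists, classes, tests and levels were chosen with earlier results of these data known. The named genes are all 39 members and, of the pathway and marker lists, genes past the test or with the largest change, beside dim, defining or not-called members named after their values were seen. The interferon regulatory factor core was also added afterwards.

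Same-numbered Mono and RWV arrays correlated in their deviations from the group means at 0.04, 0.21, -0.16, 0.13 and 0.14, so the numbers were not taken as pairs. At most 1.46% of spots held the same value on any 2 arrays. Alternatives were other scalings, pseudocounts, filters, blocks, array sets (numbers 1 to 3 against 4 and 5) and leaving out arrays. The array sets were split by number here, and the sample titles name no such sets.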

Additional observations from a re-analysis of the deposited data

Results flagged for a closer look

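In groups of 5 arrays, 11 of 154 groups of member spots held 1 array far from the others by Dixon's ratio, where chance alone gives about 1 in 20; no explanation was weighed. On Mono arrays these were B2M spot 6600 at 11616 on Mono 3 (the others 8077 to 8888) and B2M spot 39792 at 12195 on Mono 3 (7726 to 8355), TAP2 spot 11970 at 138.8 on Mono 4 (56.6 to 70.6), TAPBP spot 10912 at 74.3 on Mono 4 (113 to 125.3), HLA-DOA spot 28048 at 365.1 on Mono 5 (448 to 480.2) and CTSS spot 12409 at 3049 on Mono 2 (30.4 to 127.9). On RWV arrays they were NLRC5 spot 15053 at 165.3 on RWV 4 (127.1 to 135.4), CIITA spot 37253 at 44.6 on RWV 5 (92.25 to 103.1), HFE spot 800 at 65.3 on RWV 5 (112.2 to 126.8), MICB spot 24214 at 601.6 on RWV 3 (281 to 347.9) and ULBP2 spot 4039 at 146.4 on RWV 3 (196.3 to 214.75). CTSS spot 38121 read 1339 on Mono 2, inside the range of its group, where CTSS spot 12409 stood at 3049.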

How the results depend on the processing

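No called member spot changed direction under any of the 23 alternatives. The 19 heavy chain and 10 B2M spots stayed past the test wherever they were tested. All counts that moved by over 1.5 times follow. Annotated spots past the test numbered 8968, against 5710 without normalization between arrays (28.9% of calls higher, against 49.1%, with a median shift of -0.14 over all annotated spots), 4760 within array set 1 and 1788 within array set 2. Class I spots higher fell from 34 to 22 without saturated spots, where fewer spots were tested. Class II spots higher were 3, and 0 within array set 2, with 3 to 6 on leaving out 1 array. Stress ligand spots past the test were 3, and 1 within each array set, with 1 to 3 on leaving out 1 array. Member spots lower were 2, and 1 with scaling to the 75th percentile and within each array set, 1 to 3 on leaving out 1 array. Member spots higher were 40, with 39 to 43 on leaving out 1 array, 28 without saturated spots, 32 within array set 2, 35 without normalization and 38 within array set 1. Member genes lower were 1, and 2 without normalization or with the replicate block, 0 with the brightest spot of each gene, 1 to 2 on leaving out 1 array, and 2 without Mono 4 and RWV 3 together, an alternative chosen after seeing the data. The replicate block gave 8941 annotated spots, 41 higher and 3 lower member spots; the numbers do not pair the arrays. TAPBP spot 25931 was not past the test without Mono 4 and RWV 3 together (adjusted p = 0.0501, limma). Within array set 2, with 2 arrays a group, HLA-DMB spots 41365 and 44867 gave 4.20 and 3.58 and were not past the test. The cause of these shifts was not tested.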
